A study of Homo sapiens with 4 samples.

Results

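Aminoacyl-tRNA synthetases join each amino acid to its own tRNA, the step that fixes the reading of the genetic code. The cytosol and the mitochondria use separate enzymes for most amino acids, both encoded in the nucleus. Class I and class II synthetases are unrelated folds of the catalytic domain. In the cytosol a number of the synthetases sit together in the multi-synthetase complex, held by the scaffold cofactors AIMP1, AIMP2 and EEF1E1. Uncharged tRNA, which builds up when charging falls behind, activates the kinase GCN2, which raises translation of the transcription factor ATF4, and ATF4 in turn drives many cytosolic synthetase genes.

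The mRNAs of 38 such genes were followed in T24, a cell line from a human urinary bladder carcinoma, after knockdown of NSUN2, an RNA methyltransferase that places 5-methylcytosine on tRNA and other RNA. The 38 were taken by current or older symbol from a table of 62893 genes: 19 cytosolic synthetases (names ending in 1, with FARSA and FARSB), 16 mitochondrial synthetases (names ending in 2) and the 3 cofactors. Each matched 1 gene ID, and all 38 passed the filter on low counts that kept 16889 genes. KARS1 and GARS1 each make both the cytosolic and the mitochondrial enzyme, so the split by name is one of genes, not of enzymes.

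The groups were 2 libraries of T24 cells with control siRNA (siControl) and 2 with siRNA against NSUN2 (siNSUN2). The labels name no other treatment, and they give neither the time after transfection nor the number of siRNAs. They do not say that the replicates are separate cultures, so p-values speak only of the spread between libraries, and that spread may be technical. In bulk RNA, fewer cells of a kind and less RNA per cell cannot be told apart. NSUN2 itself stood at 280.8 and 284.3 CPM (counts scaled to the size of the library) in the siControl libraries and at 29.6 and 30.1 in the siNSUN2 libraries (log2 fold change -3.24, SE 0.043, adjusted p = 1.64e-09, edgeR). The totals were 42298529 and 215936965 counts for siControl and 92640839 and 33633249 for siNSUN2. Epithelial markers summed to 1109 to 1253 CPM, carried by KRT7, KRT8 and KRT18, while KRT19 and EPCAM were under 1 CPM in every library. The 5 urothelial markers summed to 4.71 and 4.88 CPM in siControl and to 1.92 and 2.48 in siNSUN2, with 4 of them under 1 CPM in every library, so the markers that define the urothelium were nearly absent. Those of leukocytes summed to at most 1.96 CPM. The 2 erythroid markers summed to 0 and 0.451 CPM in siControl and to 0 and 2.89 in siNSUN2. The endothelial markers summed to 0.635 and 0.395 CPM in siControl and to 2.37 and 10.6 in siNSUN2, and the fibroblast markers to 0.871 and 1.69 against 3.02 and 3.45. VWF gave most of the endothelial sum in siNSUN2, at 1.80 and 8.73 CPM, while PECAM1 was at 0 in every library. COL1A1 gave nearly all of the fibroblast sum, with DCN and PDGFRB under 1 CPM in every library. The part of these markers in the results was not tested.

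Stretches of the promoters are shown first because ATF4 acts through a short element, and the members with it are compared with the others later on. The RefSeq promoter table (GRCh38.p14) gives 250 bases before to 50 bases after each gene start, and 33 of the 38 members matched in it. TTGCATCA, a C/EBP-ATF response element, was searched on both strands. It was present in 6 of the 16 matched cytosolic members (37.5%), in 0 of 14 mitochondrial members and in 0 of 3 cofactors, against 295 of the 27305 genes in the table (1.08%), or 304 of its 35116 promoters (0.866%). The looser form TGATGNAA, which contains the reverse complement of TTGCATCA, was present in 7 of the 16 cytosolic members (43.8%), in 1 of 14 mitochondrial members (7.14%) and in 1217 of all genes (4.46%), or 1270 of all promoters (3.62%). In the windows of 60 bases below, written along the gene, capitals mark the matching element.

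AARS1, chr16:70289660-70289719, minus strand: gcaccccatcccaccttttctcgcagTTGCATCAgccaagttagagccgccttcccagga
CARS1, chr11:3057392-3057451, minus strand: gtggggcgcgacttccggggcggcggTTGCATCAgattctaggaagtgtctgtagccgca
IARS1, chr9:92293677-92293736, minus strand: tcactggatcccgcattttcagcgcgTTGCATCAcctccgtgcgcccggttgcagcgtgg
MARS1, chr12:57488038-57488097, plus strand: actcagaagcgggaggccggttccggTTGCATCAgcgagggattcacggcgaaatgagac
NARS1, chr18:57621789-57621848, minus strand: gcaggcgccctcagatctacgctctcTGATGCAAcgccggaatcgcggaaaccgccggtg
TARS1, chr5:33440941-33441000, plus strand: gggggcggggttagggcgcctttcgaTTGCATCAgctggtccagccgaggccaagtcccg
GARS1, chr7:30594819-30594878, plus strand: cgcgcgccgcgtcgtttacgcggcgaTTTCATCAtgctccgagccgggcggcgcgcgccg
YARS2, chr12:32756061-32756120, minus strand: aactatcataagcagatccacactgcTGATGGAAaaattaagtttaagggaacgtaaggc

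GARS1 and YARS2 carry only the looser form. The first base of the element lies at -187 from the start in AARS1, at -197 in YARS2 and at -33 in GARS1. In CARS1, IARS1 and MARS1 it lies at -2, -13 and -4. In TARS1 and NARS1 it lies after the start, at 3 and 15. CARS1, TARS1 and GARS1 each have another start in the promoter table, and the promoter of that start does not hold the element. For 38 of the 45 promoters of members, the last 50 bases were found in an annotated transcript of the gene. A match describes these letters only and does not show that ATF4 binds there.

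Across all genes tested, 52.6% were called in either direction at an adjusted p under 0.05 (edgeR quasi-likelihood test with Benjamini-Hochberg adjustment), 27.1% as higher and 25.5% as lower in siNSUN2. Of the 38 members, 27 were called (71.1%): 19 were lower and 8 higher. The median log2 fold change was -0.18, against 0.03 over all genes tested. The summed level of the 38 mRNAs was 6996 and 6894 CPM in siControl and 5988 and 5718 CPM in siNSUN2. In 33 members the values of the groups did not overlap, and these include members that were not called, such as MARS1 and EEF1E1. The share over all genes tested is not given here, so the number only describes these members. The falls reached further than the rises: 5 members fell by more than 0.5 on the log2 scale, and the largest called rise was 0.40.

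**Figure D1:**
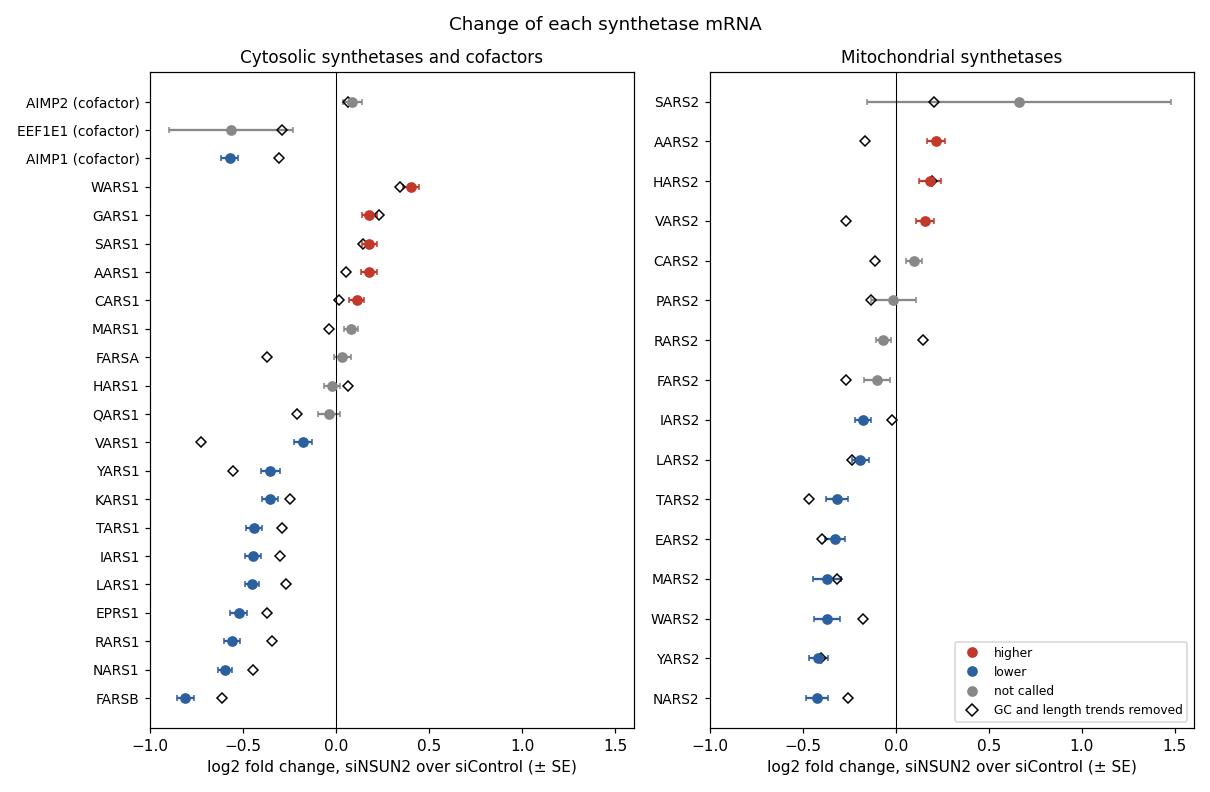
Log2 fold change of each member, siNSUN2 over siControl, with its standard error (x axis), in 2 panels for cytosolic synthetases with cofactors and for mitochondrial synthetases; colour gives the call at an adjusted p under 0.05. Cytosolic values run from -0.81 (FARSB) to 0.40 (WARS1), and the widest bar is that of SARS2.

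The called members of the complex all fell. Of its 10 listed members, 6 fell, 0 rose and 4 were not called, with a median log2 fold change of -0.45. Thus 60% were called, against 52.6% of all genes tested, where 25.5% were called lower. The 7 synthetases of the complex gave 5 falls and a median of -0.45. The 12 cytosolic synthetases outside it gave 5 rises and 5 falls (83.3% called) around a median of 0.00. With GC content and length offsets the medians were -0.28 for the 10 complex members and -0.14 for the 12 outside. The difference between these lists was not tested, since genes are not replicates.

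EPRS1, the fused enzyme for glutamate and proline, stood at 530.6 and 519.6 CPM in siControl and at 377.1 and 352.4 in siNSUN2. Both siNSUN2 libraries lay below both siControl libraries, and the log2 fold change was -0.53 (SE 0.044, adjusted p = 9.02e-06, edgeR). RARS1, the arginine enzyme, stood at 266.5 and 256.3 CPM against 180.8 and 173.5. Its groups were also apart, with a log2 change of -0.56 (SE 0.042, adjusted p = 4.45e-06, edgeR). IARS1, LARS1 and KARS1, the enzymes for isoleucine, leucine and lysine, fell as well, by 0.45, 0.45 and 0.36 on the log2 scale, again without overlap. With GC content and length offsets RARS1 read -0.34 and LARS1 -0.27, both still called. Leucyl-tRNA synthetase is also known as a leucine sensor of the mTORC1 pathway.

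The remaining synthetases of the complex were those for glutamine and methionine. QARS1 read 141.7 and 136.5 CPM in siControl and 143.2 and 127.4 in siNSUN2, so the groups overlapped (log2 fold change -0.04, adjusted p = 0.647, edgeR). With offsets for GC content and length QARS1 read -0.21 and was called lower (adjusted p = 0.0249, edgeR). MARS1 read 246.0 and 246.2 CPM against 260.7 and 259.7. These values did not overlap, and the log2 fold change of 0.08 was not called (adjusted p = 0.1, edgeR). With the offsets MARS1 read -0.04 and was not called (adjusted p = 0.398, edgeR). It was called only with library totals alone or with the filter on a mean CPM of 5. Its annotated exons share 355 bases with DDIT3 on the opposite strand.

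The cofactors differed among themselves. AIMP1, the scaffold protein whose released fragment is the cytokine EMAP II, stood at 117.1 and 110.7 CPM in siControl and at 75.1 and 77.9 in siNSUN2. It fell by 0.57 on the log2 scale (SE 0.046, adjusted p = 6.37e-06, edgeR), and by 0.31 with GC content and length offsets. AIMP2, the core scaffold, read 50.1 and 49.8 CPM against 55.1 and 50.8 (log2 fold change 0.09, adjusted p = 0.191, edgeR). Without the second siNSUN2 library AIMP2 was called higher, at 0.15 (adjusted p = 0.0402, edgeR). The count of AIMP1 per count of AIMP2 went from 2.34 and 2.22 in siControl to 1.36 and 1.53 in siNSUN2. AIMP2 shares 28.9% of its exon bases with EIF2AK1 on the opposite strand.

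EEF1E1, a small cofactor of the complex, varied within both groups. It read 30.8 and 43.2 CPM in siControl and 29.3 and 20.5 in siNSUN2. The fitted change of -0.57 had an SE of 0.33 and was not called (adjusted p = 0.312, edgeR).

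Phenylalanyl-tRNA synthetase is built from alpha chains, encoded by FARSA, and beta chains, encoded by FARSB, in equal number. FARSB had the largest fall among the 38 genes. It stood at 146.3 and 143.3 CPM in siControl and at 84.9 and 80.0 in siNSUN2 and fell by 0.81 on the log2 scale (SE 0.045, adjusted p = 7.45e-07, edgeR). FARSA stood at 97.1 and 96.3 CPM against 102.2 and 95.3, with overlapping groups and a log2 fold change of 0.03 (adjusted p = 0.617, edgeR). The ratio of FARSB to FARSA counts was 1.51 and 1.49 in siControl and 0.831 and 0.839 in siNSUN2. With offsets for GC content and length the values were -0.61 for FARSB and -0.37 for FARSA, which was then called (adjusted p = 2.16e-04, edgeR).

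Outside the complex, NARS1, the asparagine enzyme, fell most after FARSB. It stood at 526.7 and 520.3 CPM in siControl and at 352.0 and 339.7 in siNSUN2 (log2 fold change -0.60, SE 0.039, adjusted p = 1.89e-06, edgeR). NARS1 was also among the most abundant members per length, at 128.0 ± 1.11 RPKM (CPM divided by the exon length in kilobases; SD, n = 2) in siControl, next to KARS1 at 130.7 ± 3.68. These neighbours in the order did not differ beyond their spread. TARS1, the threonine enzyme, read 583.3 and 584.9 CPM against 441.8 and 418.2 and fell by 0.44 on the log2 scale. YARS1, the tyrosine enzyme, fell by 0.35. With the offsets TARS1 read -0.29 and YARS1 -0.56, both called.

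VARS1, the valine enzyme, gave the smallest called fall of the cytosolic genes. It read 244.3 and 238.0 CPM in siControl and 222.3 and 203.0 in siNSUN2 (log2 fold change -0.18, adjusted p = 0.0128, edgeR). With GC content and length offsets the value was -0.73, while without the second siNSUN2 library it was -0.11 and not called (adjusted p = 0.0576, edgeR). HARS1, the histidine enzyme, read 153.8 and 156.8 CPM against 155.6 and 150.1, with overlapping groups and no call (log2 fold change -0.02, adjusted p = 0.685, edgeR). With the offsets it read 0.07, also not called.

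WARS1 had the largest called rise. The tryptophan enzyme, whose gene is known to be induced by interferon-gamma, stood at 134.1 and 130.4 CPM in siControl and at 178.7 and 171.1 in siNSUN2. The log2 fold change was 0.40 (SE 0.042, adjusted p = 3.66e-05, edgeR), and it stayed between 0.34 and 0.44 and called under all alternatives in which WARS1 was tested. AARS1, GARS1 and SARS1, the alanine, glycine and serine enzymes, each rose by 0.18. AARS1 read 333.2 and 321.5 CPM against 380.2 and 358.9, GARS1 297.8 and 305.9 against 343.9 and 339.5, and SARS1 181.5 and 187.5 against 205.4 and 212.0.

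These smaller rises held less firmly than most of the larger falls. AARS1, GARS1 and SARS1 kept their calls in 17 of 19 alternatives, and CARS1 in 9. Falls of like size varied too: VARS1 and IARS2 (each -0.18) kept theirs in 16 and LARS2 (-0.19) in 19. CARS1, the cysteine enzyme and the called member nearest the threshold, read 125.4 and 124.6 CPM against 136.3 and 133.5 (log2 fold change 0.11, SE 0.040, adjusted p = 0.0425, edgeR). Its call was lost without siControl 1, without siControl 2 or without siNSUN2 1, at 0.05, 0.09 and 0.09. GARS1 and SARS1 were not called without siControl 1, at 0.09 (adjusted p = 0.15, edgeR) and 0.09 (adjusted p = 0.189, edgeR). With GC content and length offsets AARS1 and CARS1 lost their calls, at 0.05 (adjusted p = 0.32, edgeR) and 0.01 (adjusted p = 0.783, edgeR). WARS1, GARS1 and SARS1 kept theirs, at 0.34, 0.23 and 0.14.

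**Figure D2:**
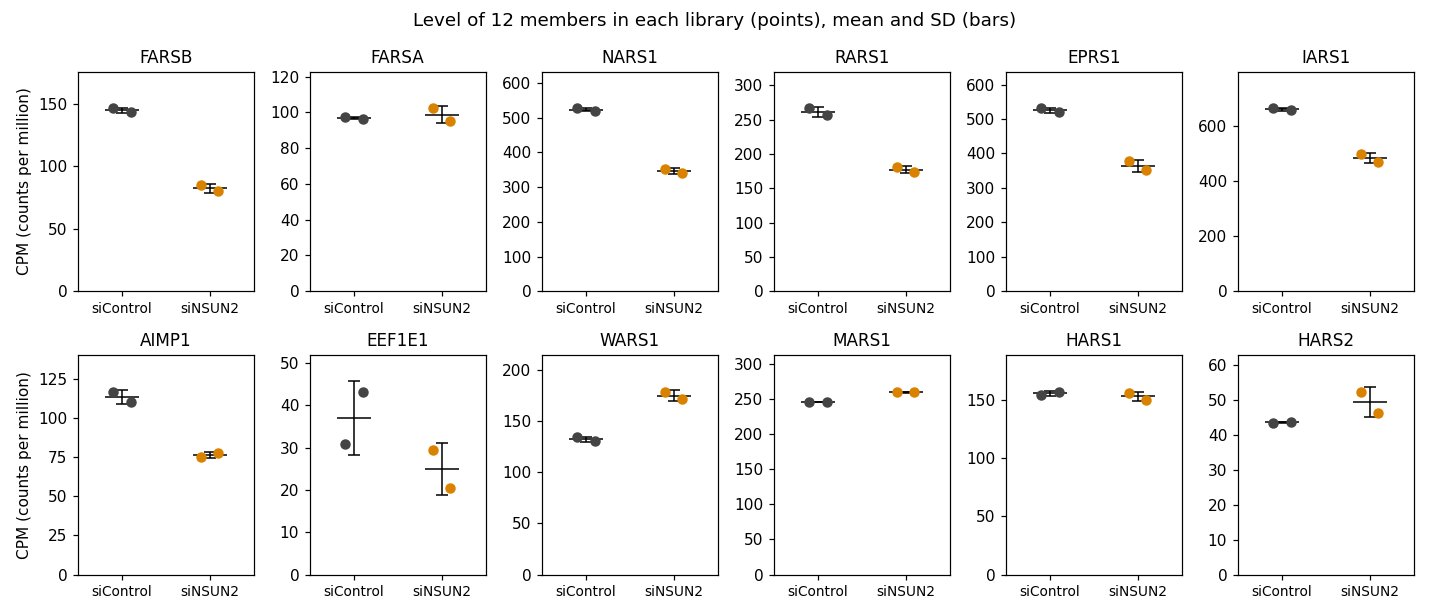
CPM of 12 members in each library (points; y axis from 0), with the mean and SD of each group of 2 libraries. FARSB goes from 146.3 and 143.3 in siControl to 84.9 and 80.0 in siNSUN2, whereas the EEF1E1 points of a group lie as far apart as 30.8 and 43.2.

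The cytosolic genes that carry TTGCATCA in the windows shown above did not share a direction. AARS1 and CARS1 rose, IARS1, NARS1 and TARS1 fell, and MARS1 was not called, around a median of -0.18. The 10 matched cytosolic members without it gave 3 rises, 4 falls and a median of -0.03. With GC content and length offsets the order of these medians turned, at -0.16 with the element and -0.23 without it. LARS1, VARS1 and YARS1, which had no match in the promoter table and are in neither group, all fell. Of the 12 synthetases listed as ATF4 targets, 5 rose, 6 fell and 1 was not called, and the 7 other cytosolic synthetases gave 0 rises and 4 falls. All 5 cytosolic rises were thus among listed ATF4 targets, which make up most of the cytosolic genes, and the difference was not tested.

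The rest of the amino acid response was also mixed. Of 23 genes, 15 rose, 6 fell and 2 were not called, with a median of 0.26. ATF3 went from 71.1 and 71.4 CPM to 196.9 and 189.5 and DDIT3 from 24.8 and 24.5 to 67.5 and 63.7. EIF2AK4, which encodes GCN2, went from 133.9 and 130.9 CPM to 52.2 and 53.1, a log2 fold change of -1.33. ATF4 mRNA rose by 0.18, and with GC content and length offsets it read -0.05 and was not called (adjusted p = 0.33, edgeR). ASNS, asparagine synthetase and a standard ATF4 target, fell by 0.15, while TRIB3, another such target, rose by 0.83. With the offsets ASNS read -0.06 and was not called (adjusted p = 0.221, edgeR), and TRIB3 read 0.39. ATF4 is controlled mainly in translation, which mRNA counts do not measure.

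Mitochondrial synthetases were far less abundant per length than cytosolic ones. Their median was 7.71 RPKM in siControl, from 0.497 for SARS2 to 65.1 for IARS2, against 48.1 for the cytosolic genes, from 12.5 for CARS1 to 130.7 for KARS1. After NSUN2 knockdown 8 of the 16 fell, 3 rose and 5 were not called, with a median log2 fold change of -0.14. The mean log2 CPM of the 16 genes was 4.94 and 4.95 in siControl and 4.91 and 4.76 in siNSUN2. Without SARS2, which has few counts, the other 15 genes gave 5.25 and 5.22 against 5.10 and 5.07, with both siNSUN2 libraries lower. No called mitochondrial gene changed by more than 0.43 on the log2 scale.

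NARS2, for asparagine, read 32.6 and 31.8 CPM in siControl and 24.8 and 23.1 in siNSUN2 (log2 fold change -0.43, SE 0.059, adjusted p = 2.31e-04, edgeR). YARS2, for tyrosine, read 54.4 and 54.6 CPM against 42.2 and 39.2 (log2 fold change -0.42, SE 0.050, adjusted p = 8.3e-05, edgeR). Both genes were lower in both siNSUN2 libraries. With GC content and length offsets NARS2 read -0.26 and was still called. WARS2 and MARS2 each fell by 0.37, EARS2 by 0.33 and TARS2 by 0.32. LARS2 fell by 0.19 and IARS2 by 0.18. With GC content and length offsets the values of WARS2 and IARS2 were -0.18 (adjusted p = 0.0802, edgeR) and -0.02 (adjusted p = 0.633, edgeR), neither of them called.

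The 3 mitochondrial rises were small. AARS2 read 38.9 and 37.8 CPM against 45.3 and 43.5 (log2 fold change 0.21, adjusted p = 0.0045, edgeR), and with GC content and length offsets it read -0.17 and was called lower. HARS2, for histidine, read 43.3 and 43.6 CPM against 52.3 and 46.2, a log2 fold change of 0.18 (adjusted p = 0.0347, edgeR). VARS2 read 48.9 and 46.7 CPM against 54.4 and 51.8, at 0.16 (adjusted p = 0.0224, edgeR), and turned to -0.27 with the offsets. HARS2 and VARS2 were not called without siControl 1 (0.11 and 0.12), without siControl 2 (0.17 and 0.10) or without siNSUN2 1 (0.08 and 0.12). DESeq2 called 0 of the 16 genes higher, and 3 were called by edgeR. VARS2 shares 22% of its exon bases with GTF2H4 on the same strand.

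Of the 5 mitochondrial genes not called, CARS2 came nearest to the threshold. It read 61.1 and 59.7 CPM in siControl and 65.2 and 63.6 in siNSUN2 (log2 fold change 0.09, adjusted p = 0.0906, edgeR), and with GC content and length offsets it turned to -0.12 and was called lower (adjusted p = 0.043, edgeR). RARS2, for arginine, read -0.07 (adjusted p = 0.204, edgeR), and with the offsets it turned to 0.15 and was called higher (adjusted p = 0.0122, edgeR). FARS2 read -0.10 (adjusted p = 0.263, edgeR), and with the offsets it read -0.27 and was called lower (adjusted p = 0.0139, edgeR). PARS2, for proline, read -0.02 at only 5.37 to 5.91 CPM.

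SARS2, the mitochondrial serine enzyme, had by far the fewest counts. The libraries held 52 and 423 counts in siControl and 361 and 38 in siNSUN2, or 1.22 and 1.99 CPM against 3.93 and 1.11. The siNSUN2 values lay on either side of siControl. The fitted change of 0.66 had an SE of 0.82 (adjusted p = 0.593, edgeR), and it was 1.28 and called without siNSUN2 2 (adjusted p = 0.0332, edgeR). In GENCODE release 29, 46.2% of the SARS2 exon bases also belong to another protein-coding gene on the same strand, which had 0 counts. How reads of the shared bases were assigned was not tested.

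The genes for the same amino acid in the 2 compartments were compared within each library as the log2 ratio of cytosolic to mitochondrial CPM. Among 17 pairs, with EPRS1 and FARS2 each used in 2 of them, the ratio was lower in both siNSUN2 libraries in 11, higher in 5 and overlapping in 1. No share over other pairs of genes is given as a background. The smallest shifts were 0.016 for cysteine and -0.036 for alanine. With GC content and length offsets, the difference between the log2 fold changes turned sign for alanine, threonine, tyrosine, EPRS1 with EARS2 and FARSA with FARS2. The other pairs kept their sign. Both genes fell in 6 pairs: EPRS1 with EARS2, and those for isoleucine, leucine, asparagine, threonine and tyrosine. Both rose only in the alanine pair, where the direction of AARS2 turns with GC content and length offsets. Averaged over the genes of each kind, the cytosolic mean went from 8.06 and 8.04 log2 CPM in siControl to 7.89 and 7.82 in siNSUN2.

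Tryptophan was the only amino acid whose cytosolic gene rose while the mitochondrial gene fell. WARS1 was 8.29 and 7.97 times WARS2 in CPM in siControl and 14.7 and 13.1 times in siNSUN2. WARS2 read 16.2 and 16.4 CPM against 12.2 and 13.03. Its call was lost with GC content and length offsets, as given above. In the methionine pair the ratio rose from 14.8 and 14.7 to 21.2 and 19.04, through the fall of MARS2. The valine pair moved the other way, VARS1 called lower and VARS2 higher, which the offsets turned for VARS2.

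**Figure D3:**
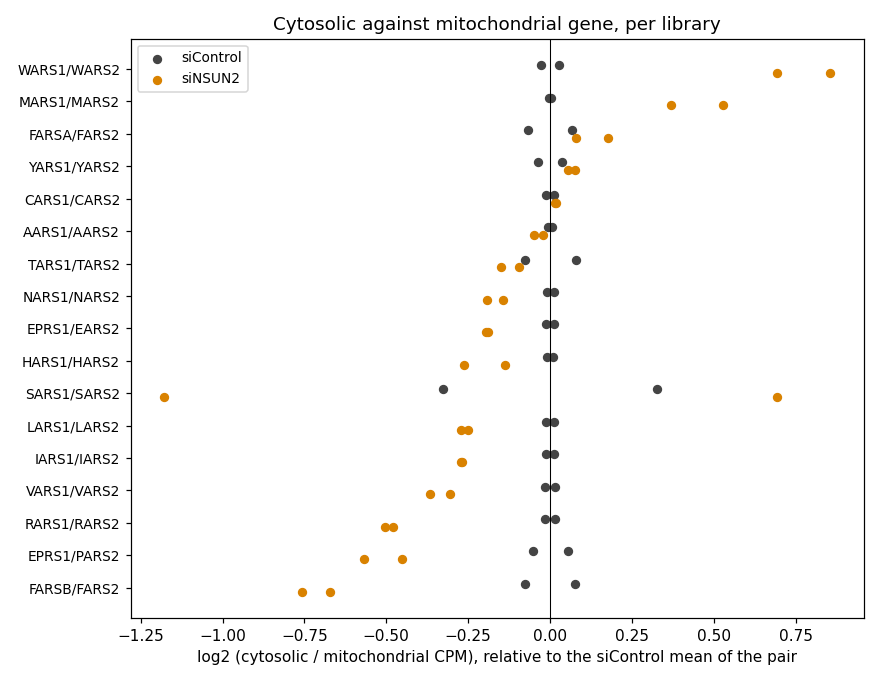
Log2 ratio of cytosolic to mitochondrial CPM in each library, relative to the siControl mean of the pair (x axis), for 17 pairs; colour gives the group. Tryptophan lies furthest right (mean change 0.77) and FARSB over FARS2 furthest left (-0.71), and the SARS1 and SARS2 pair overlaps.

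HARS1 and HARS2 are neighbours that are read in opposite directions. Their exons share 437 bases on opposite strands. HARS1 was 3.55 and 3.59 times HARS2 in CPM in siControl and 2.98 and 3.25 times in siNSUN2. Whether reads from the shared bases were told apart depends on the strand setting of the counting, which is not given in the sources used here.

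By the class of the enzyme, the counts were as follows. Of the 19 class I genes, 3 rose and 12 fell, with a median of -0.19. EPRS1, the fused enzyme for glutamate and proline, was counted here as class I only, while PARS2, for proline, was counted as class II. Of the 16 class II genes, 5 rose and 6 fell, with a median of -0.02. With GC content and length offsets the medians were -0.27 and -0.21.

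GC content moved with the changes. Across the 38 members the log2 fold change and the GC content of the transcript had a Pearson r of 0.69, and 0.66 without SARS2, against 0.34 over 16286 genes. Members share libraries and base composition, so these are descriptions. The 10 cytosolic genes that fell had a median GC content of 43.6% (41.4% to 62.6%), and the 5 that rose had 51.8% (48.6% to 53.5%). Mitochondrial genes showed the same order, at 49.2% for the 8 that fell and 59.3% for the 3 that rose.

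Offsets for GC content and length in each library changed calls in both directions. AARS1 and CARS1 lost their calls as higher, AARS2 and VARS2 turned, and IARS2 and WARS2 lost their calls as lower. FARSA, QARS1, CARS2 and FARS2 were added as lower and RARS2 as higher. The cytosolic calls became 12 lower and 3 higher and the mitochondrial ones 10 lower and 2 higher. The median of the cytosolic genes went from -0.18 to -0.27 and that of the mitochondrial genes from -0.14 to -0.21, while that of all genes was 0.01. The medians of the complex and of the other cytosolic synthetases came closer, at -0.28 for the 10 complex members and -0.14 for the 12 outside. The part of GC content in the single changes was not tested beyond these values.

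**Figure D4:**
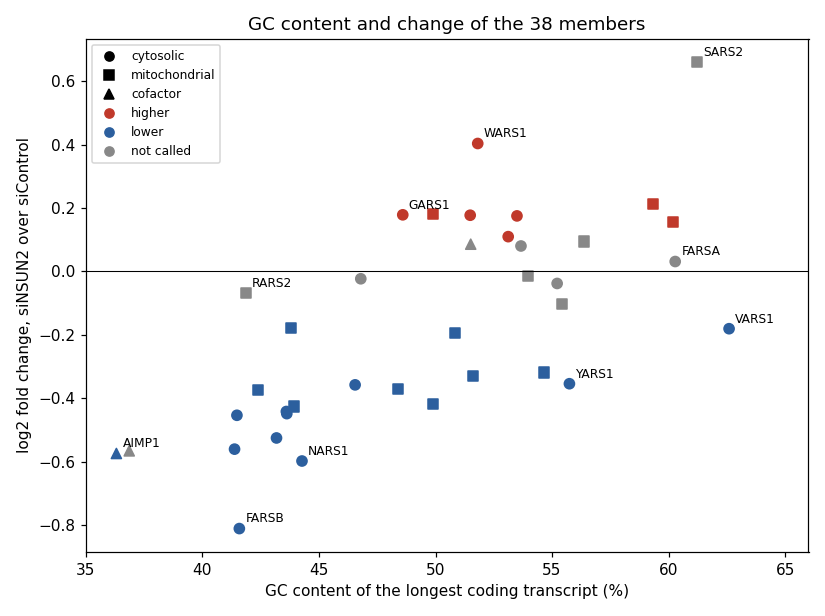
GC content of the longest coding transcript (x axis, %) against the log2 fold change (y axis) for the 38 members. Marker shape gives the class, and colour gives the call at an adjusted p under 0.05. The points rise from AIMP1 at 36.3% GC to the GC-rich mitochondrial genes (r = 0.69), and VARS1 at 62.6% GC lies below them.

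The word ACCCTA was sought in the longest annotated 3′ UTR because earlier results of these data had concerned genes with it. It was present in 3 of 37 members searched (8.11%), against 2657 of 12443 genes tested whose UTR could be searched (21.4%). A longer UTR has more room for the word, and these shares were not matched for length. The UTRs of the members ran from 76 bases in VARS1 to 2357 in EARS2, so the shares do not show that the word is rare in members. The sites are shown because they were so few, with the word in capitals, from GENCODE release 29 transcripts.

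MARS1: aggagctggctACCCTAtctgaggagga
WARS1: cctgccaaatgACCCTAgaccctctgtc
EARS2: ctctatgggagACCCTAagccagaacca

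WARS1 rose by 0.40, EARS2 fell by 0.33 and MARS1 was not called. The 3 genes with the word thus had no common direction. When every word-bearing gene was left out of the fit, the cytosolic genes called higher went from 5 to 1 of those still tested, since WARS1 was itself removed and CARS1, GARS1 and SARS1 lost their calls.

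The steps before and after charging changed in part. Of 22 genes for tRNA maturation and export, 12 fell, 2 rose and 8 were not called, with a median of -0.44. TRNT1, which adds the CCA end that synthetases charge, read 52.1 and 52.4 CPM in siControl and 28.2 and 29.2 in siNSUN2 (log2 fold change -0.87). SSB, the La protein that binds new tRNA transcripts, fell by 0.75 and TSEN15, a subunit of the tRNA splicing endonuclease, by 0.55, with TSEN15 at -0.30 under GC content and length offsets. XPOT, the tRNA exporter, was not called, at 0.09.

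Of 4 genes that remove wrongly charged amino acids or resemble synthetases, DTD2, TARS3 and DTD1 fell by 0.66, 0.37 and 0.18, and AARSD1 was not called. With the offsets DTD2 read -0.43, and DTD1 read -0.09 and lost its call (adjusted p = 0.171, edgeR). Of 9 genes of the mitochondrial amidotransferase, Met-tRNA formylation and peptidyl-tRNA release, 3 fell and 5 were not called. QRSL1, a subunit of that amidotransferase, fell by 0.37 and PTRH2, a peptidyl-tRNA hydrolase, by 0.56. With the offsets they read -0.17 and -0.36, both called.

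The elongation factors that bring charged tRNA to the ribosome, and those that move it along, gave 3 rises, 4 falls and 3 genes not called of 10 tested, with a median of -0.05; EEF1G did not pass the filter. GFM2, which acts in mitochondrial ribosome recycling, fell by 0.48 and read -0.31 with GC content and length offsets. EEF1A2 and EEF1D rose by 0.35 and 0.29 and turned to -0.34 and -0.24 with GC content and length offsets. For these lists the same share of 52.6% of all genes called stands as the background.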

How the data were processed

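Poly(A) RNA of T24 cells was made into stranded libraries and sequenced as read pairs, per the labels' protocols. The authors deposited read counts, not normalized, for each Ensembl gene in each library. HISAT2, HTSeq and the build hg19 are named in the submitters' processing notes. Not given in the sources used here are their versions, the annotation and the strand setting. Every row named a gene and 0 columns were left unused.

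All genes were fitted together in R 4.3.3 with edgeR 4.0.16 (filterByExpr by group, TMM factors, robust quasi-likelihood fit and F-test without a block), two-sided, with Benjamini-Hochberg adjustment over 16889 genes and a threshold of 0.05. Standard errors come from the F statistic. CPM uses TMM-scaled library sizes (factors 0.985 to 1.02), and 1 CPM stands for 33.6 to 216 counts. RPKM divides by the union of exons. Counts of replicates differed beyond sampling noise, with a chi-square over its degrees of freedom of 18.8 for siControl and 12.4 for siNSUN2. A permutation test of 2 against 2 cannot go below p = 0.3333. GENCODE release 29 (GRCh38) served only through gene IDs, for GC content (known for 96.4% of genes tested), length and UTRs; no coordinates of the counts are given. Offsets were lowess fits of each library on GC content and length. Alternatives included DESeq2 1.42.0 and limma 3.58.1.

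The members and lists were chosen with earlier results of these data known. Values in every library were set for called members changed by at least 0.5 on the log2 scale, NSUN2 and the members nearest the threshold on either side (CARS1 and CARS2); for other lists, up to 3 called genes with the smallest p. Other members given per library, the HARS1 and HARS2 pair and EEF1E1 among them, were chosen after their values were seen. From the other lists, ATF4, ASNS, TRIB3, XPOT, AARSD1 and SLC7A5, given without values per library, were also chosen after their values were seen. A few genes of the other lists are not reported here. Named pseudogenes (17 for 13 members) held at most 0.906% of the member's count, and 22 members share exon bases with another gene.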

Additional observations from a re-analysis of the deposited data

How the results depend on the processing

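Of the 38 members, 18 kept their direction and their side of the threshold under every alternative run on them (19, or 18 for WARS1, MARS1 and EARS2, which the removal of word-bearing genes takes out, and for SARS2, which the filter on mean CPM takes out), and between 21 and 28 members were called. Most of the larger falls kept their calls throughout, as did the rise of WARS1. Among smaller changes, rises such as CARS1 and falls such as VARS1 and IARS2 lost their calls under some alternatives. Cytosolic genes called higher went from 5 to 3 with GC content and length offsets, to 3 with those offsets and the replicate block, to 1 with word-bearing genes left out, and to between 2 and 5 without 1 library. Mitochondrial genes called higher went from 3 to 0 with DESeq2, to 1 with word-bearing genes left out, to 1 at an adjusted p under 0.01, and to between 1 and 4 without 1 library. Cofactors called lay between 1 and 2 without 1 library. The cytosolic median of -0.18 was -0.27 with the offsets, -0.27 with the offsets and the block, -0.42 without word-bearing genes (which removes MARS1 and WARS1), and -0.25 to -0.11 without 1 library. The mitochondrial median of -0.14 was -0.23 to -0.11 without 1 library. The cytosolic minus the mitochondrial median, -0.04, was -0.25 without word-bearing genes and -0.062 to 0.0042 without 1 library, the positive value being that without siNSUN2 2. With the offsets, and with the offsets and the block, the direction turned for FARSA (-0.374 and -0.375), AARS2 (-0.168 and -0.169), CARS2 (-0.116 and -0.117), RARS2 (0.147 and 0.146) and VARS2 (-0.272 and -0.274). Of members not called with or without the offsets, MARS1 (-0.04) and HARS1 (0.07) turned too. Without the offsets the sign also turned for FARSA, HARS1, PARS2, QARS1 and SARS2 under at least 1 other alternative, at values that were not called. The cause of these changes was not tested. The median of all shared genes moved by 0.039 with the offsets, by -0.067 without siControl 1 and by -0.068 without word-bearing genes.

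The replicate numbers are shared between the groups, and the labels do not say that a number marks a batch. The differences between replicates 1 and 2 correlated at 0.088 between the groups over 9661 genes. With the replicate block 28 members were called in place of 27, CARS2 being added at 0.093 (adjusted p = 0.0456, edgeR). SARS2 had as few as 38 counts in a library, and its SE of 0.82 was followed by that of EEF1E1, 0.33. Thinned to the shallowest total, an alternative chosen after seeing the data, only RARS2 changed its call, to lower at -0.11 (adjusted p = 0.047, edgeR).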

Other observations

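Most amino acid transporters rose. Of 10 genes, 9 rose and 1 fell, with a median log2 fold change of 0.53 (0.27 with GC content and length offsets), against 52.6% of all genes called. SLC3A2, the heavy chain shared by several exchangers, read 320.3 and 328.6 CPM in siControl and 686.7 and 651.4 in siNSUN2 (log2 fold change 1.04). SLC1A5, a glutamine carrier, rose by 0.66 (0.19 with the offsets), and SLC38A1, another glutamine carrier, read 507.8 and 514.5 CPM against 215.1 and 210.3 (log2 fold change -1.26). SLC7A5, the large neutral amino acid exchanger, rose by 0.18 and turned to -0.30 with the offsets.

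Of 10 interferon-gamma genes, the list that WARS1 is known for, 7 were tested, and 6 of these rose. TAP1, a peptide transporter of antigen presentation, and IRF1, a transcription factor, rose by 0.82 and 0.75.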
